A study of Mus musculus with 7 samples.

Results

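Members of the insulin-like growth factor (IGF) system were followed across 7 mouse RNA sequencing libraries, to see which of them differed between the fibroblast and the neural state. They were chosen by name, with earlier results of these data known, and are 10 genes of the 24354 gene symbols in the deposited table. These are the ligand gene Igf1, its receptor gene Igf1r and the binding protein genes Igfbp2, Igfbp3, Igfbp4, Igfbp5, Igfbp6 and Igfbp7. The RNA-binding protein genes Igf2bp2 and Igf2bp3 complete the set. Igfbp1 and Igf2bp1, the remaining genes of these families, were read as part of the wider pathway.

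IGF-I and IGF-II act through the IGF1 receptor, a tyrosine kinase that signals through insulin receptor substrates, PI3 kinase and Akt and supports growth and survival, in neural progenitors among other cells. Secreted IGF binding proteins hold the ligands outside the cell, and depending on the protein and on proteolysis they withhold the ligand or deliver it. Despite the similar name, the Igf2bp genes encode intracellular proteins that bind messenger RNAs, first known from the Igf2 message, and are typical of fetal and transformed cells.

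The MEF library came from mouse embryonic fibroblasts, prepared at embryonic day 13.5 from embryos freed of head, inner organs and spinal cord, with the genotype Oct4-CreER x Rosa26-loxSTOPlox-EYFP on a C57BL/6-Pou5f1 x 129X1/SvJ background. The cNSC library came from control neural stem cells (cNSCs) of embryonic cerebral cortex of the same age, from OG2/ROSA26 heterozygous female mice. Another 5 libraries hold induced neural stem cells (iNSCs), made from fibroblasts infected with lentivirus or retrovirus carrying reprogramming factors and kept in neural stem cell medium. The libraries pOKSM, pBKSM, mcBKSM clone 1 and mcBKSM clone 3 share the genotype and background of the MEFs, and the names are read as polycistronic (p) or monocistronic (mc) vectors with Klf4, Sox2 and Myc plus Oct4 (O) or Brn4 (B). The DTA library came from fibroblasts of Oct4-CreER x Rosa26-loxSTOPlox-DTA genotype, a diphtheria toxin gene behind a Cre-dependent stop, with the strain given as unknown and no vector named. Each library was made from RNA pooled from 2 to 3 biological replicates, and the 2 mcBKSM clones are the only label group with more than 1 library. In the comparisons with MEF, with cNSC and of the DTA line, lines are treated as independent samples although pOKSM and both clones resemble each other. The p-values there measure the spread between these lines. In the comparison of pBKSM with the mcBKSM clones, they rest on the spread between the 2 clones.

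Values are FPKM, that is fragments relative to transcript length and library size, which allows comparison between genes. Depth is not given. From the steps between low values it was about 10800000 to 15800000 fragments a library, at which 3 fragments on a transcript of 2 kb equal 0.0949 to 0.139 FPKM (counting error only). Fibroblast markers (5 genes) summed to 1266 FPKM in MEF, 0.834 in cNSC and 1.52 to 9.13 in the iNSC libraries, and 5 neural stem cell markers summed to 0.103, 2242 and 1047 to 5845. Endothelial and microglial marker lists had no gene at 1 FPKM in any library, and the muscle list had 1, in the iNSC libraries (sum up to 3.58). Pericyte markers (4 genes) summed to 25.7 FPKM in MEF, with Rgs5, Kcnj8 and Abcc9 listed at 0, and to at most 0.856 elsewhere. Meningeal markers summed to 3.07 FPKM in MEF, 25.1 in cNSC and 4.23 to 48.6 in the iNSC libraries, and choroid plexus markers to 0, 2.43 and 0 to 8.45, with Ttr at 0 in all 7 libraries. Astrocyte markers (4 genes) summed to 717 FPKM in cNSC, 9.87 in MEF and 29.5 to 478 in the iNSC libraries, and neuron markers (4 genes) to 1.87, 0.0134 and 1.30 to 76.0. The part of these lists in the results was not tested. In these bulk samples fewer cells of a type and less RNA per cell cannot be told apart.

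As deposited, the binding protein genes Igfbp2, Igfbp3, Igfbp5 and Igfbp6 separated the fibroblast library from the neural ones. Igfbp2, encoding a binding protein prominent in fetal brain, was listed at 0 in MEF. It was 882 FPKM in cNSC, 595 in pOKSM, 1682 in pBKSM, 483 and 469 in mcBKSM clones 1 and 3, and 1130.4 in DTA. The iNSC values lay on both sides of the cNSC value. By abundance Igfbp2 ranked between 27 (DTA) and 148 (mcBKSM clone 1) among all genes of the 6 neural libraries, and 47 in cNSC.

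Igfbp3, whose product is the main IGF carrier in blood, was also listed at 0 in MEF. It was 822 FPKM in cNSC, 175 in pOKSM, 317 in pBKSM, 115 and 133 in the mcBKSM clones and 273 in DTA. All 5 iNSC libraries lay between the references, with the highest of them 2.59-fold below cNSC. Igfbp5, encoding a matrix-associated binding protein, was listed at 0 in MEF and 24.6 FPKM in cNSC. It was 84.0 FPKM in pOKSM, 89.3 in pBKSM, 130.1 and 102 in the mcBKSM clones and 20.7 in DTA. For this gene DTA sat next to cNSC, and the other 4 iNSC libraries sat above both.

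Igfbp6, encoding the binding protein that prefers IGF-II over IGF-I, had the opposite pattern. It was 257 FPKM in MEF and 0.164 in cNSC, and 0.142 in pOKSM, 0.154 in pBKSM, 0.240 and 0.198 in the mcBKSM clones and 0.732 in DTA. Its value was under 1 FPKM in each neural library, near the detection floor in all of them except DTA.

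In the comparison of the 5 iNSC libraries with MEF (limma-trend on log2(FPKM + 1), Benjamini-Hochberg adjusted over 13042 genes, called at an adjusted p under 0.05), 3 of the 10 genes rose and 2 fell. Over all genes tested, 16.3% were called, 6.77% higher and 9.55% lower. The 2 that fell, Igf1 and Igfbp6, reached the filter of 1 FPKM in MEF alone. A gene entering this way had to be lower elsewhere, and the count of 2 is a description. The 3 that rose, Igfbp2, Igfbp3 and Igfbp5, reached the filter in the 6 neural libraries and not in MEF. They likewise had to be higher than MEF, so the count of 3 is a description too. Igfbp2 averaged 872 ± 528 FPKM (SD, n = 5) in the iNSC libraries, a difference of 9.57 ± 0.77 on the log2(FPKM + 1) scale (SE, adjusted p = 0.00103). Igfbp3 averaged 203 ± 88.7 FPKM, with a log2(FPKM + 1) difference of 7.56 ± 0.60 (adjusted p = 0.000959). Igfbp5 averaged 85.3 ± 40.3 FPKM, with a difference of 6.21 ± 0.95 (adjusted p = 0.0109). Since MEF is listed at 0 for these 3 genes, no fold is given, and the size of the log2 difference depends on the added 1. The zeros are taken as deposited: with no counts in the table, a listing at 0 cannot be told apart from a level that was not estimated, and the 3 rises rest on the single MEF library. Igfbp6 averaged 0.293 ± 0.248 FPKM and fell by 7.66 ± 0.28 (adjusted p = 6.94e-05). The MEF value lay outside the range of the iNSC libraries for each of the 4 genes.

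**Figure D1:**
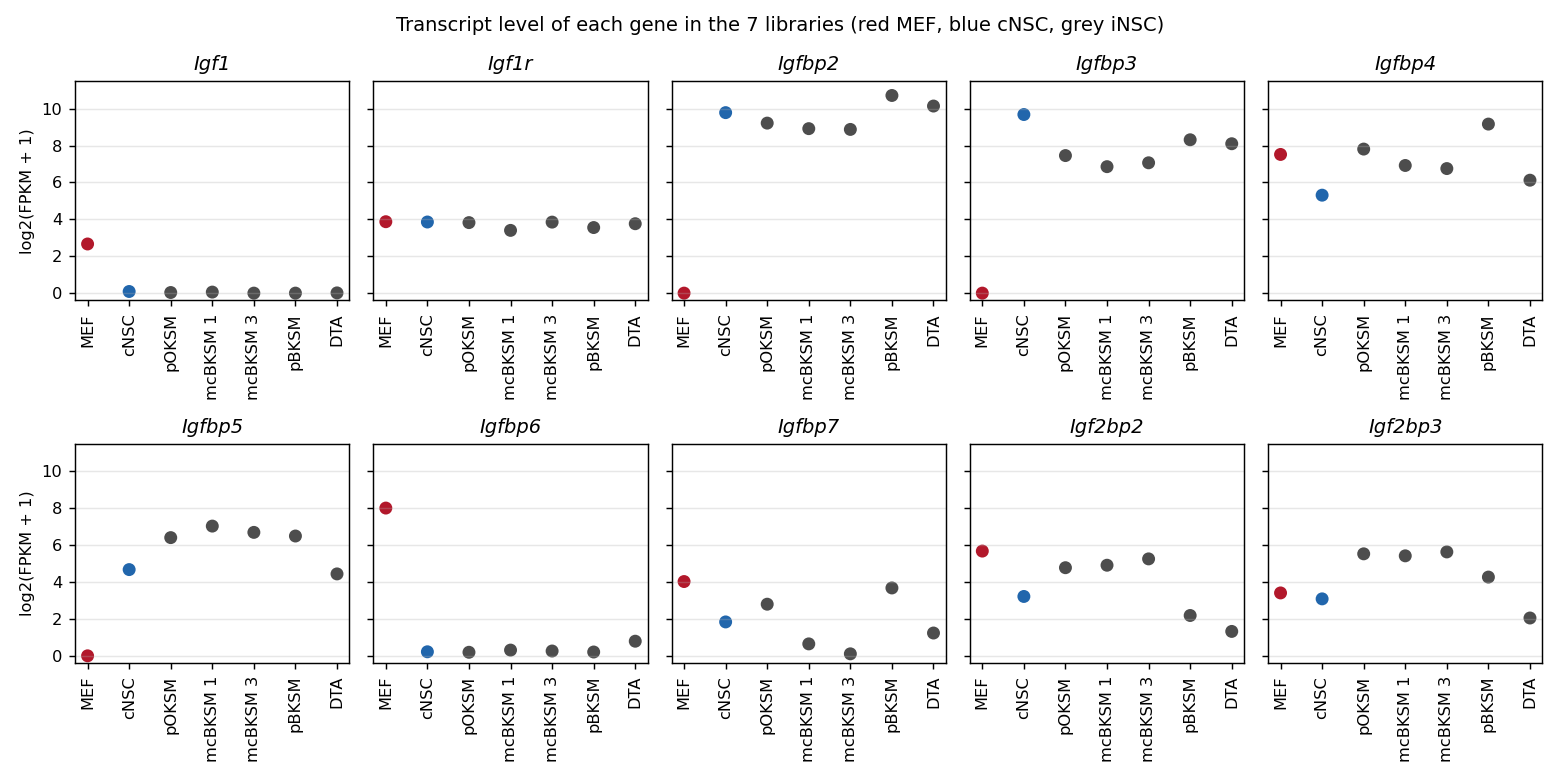
Level of each of the 10 genes as log2(FPKM + 1) in the 7 libraries, 1 point per library (red MEF, blue cNSC, grey iNSC). Igfbp2, Igfbp3 and Igfbp5 are at 0 in MEF and up to 1682 FPKM (Igfbp2, pBKSM) elsewhere, Igfbp6 is high in MEF alone, and Igf1r is level.

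Igfbp4 did not follow the fibroblast and neural division, and Igfbp7, though highest in MEF, was not called against it. Igfbp4, encoding a binding protein known mainly for withholding IGF and for its cleavage by pappalysin, was 182 FPKM in MEF and 38.7 in cNSC. It was 224 FPKM in pOKSM, 573 in pBKSM, 120 and 107 in the mcBKSM clones and 68.7 in DTA. All 5 iNSC values were above cNSC and lay on both sides of MEF, and the log2(FPKM + 1) difference from MEF was -0.16 ± 1.10 (SE, adjusted p = 0.931). Igfbp7, whose product binds IGF weakly and insulin, was 15.3 FPKM in MEF and 2.57 in cNSC. It was 5.96 FPKM in pOKSM, 11.8 in pBKSM, 0.566 and 0.0778 in the mcBKSM clones and 1.36 in DTA. No iNSC library reached the MEF level of Igfbp7, yet the spread between lines was wide, and the difference of -2.33 ± 1.40 did not pass (adjusted p = 0.308). The gene Polr2b overlaps Igfbp7 on the other strand, and whether strand was used in counting is not given.

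The positions of these genes are known in mm10 (GENCODE M21). Igfbp2 (chromosome 1, 72824503 to 72852474, plus strand) and Igfbp5 (chromosome 1, 72857932 to 72874884, minus strand) are neighbours that point at each other across 5457 bases, and both were listed at 0 in MEF. Igfbp3 (chromosome 11, 7206086 to 7213923, minus strand) has the same arrangement with Igfbp1 (chromosome 11, 7197782 to 7202546, plus strand), 3539 bases away. Unlike Igfbp3, the liver-type binding protein gene Igfbp1 was listed at 0 in 6 libraries and was 0.0639 FPKM in pBKSM. Igfbp6 lies on chromosome 15 (102144362 to 102149511), Igfbp4 on chromosome 11 (99041244 to 99054392) and Igfbp7 on chromosome 5 (77349240 to 77408041).

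The 250 bases before the RefSeq start (GRCm38.p6, the mm10 assembly) are shown for Igfbp2 and Igfbp3, the 2 most abundant binding protein genes of cNSC, and for Igfbp6, the leading one of MEF. Capitals mark CG dinucleotides, and each sequence runs 5′ to 3′ on the strand of the gene. The windows are chr1:72824230-72824479 (plus strand, the upstream of 2 listed starts), chr11:7213924-7214173 (minus strand) and chr15:102143936-102144185 (plus strand).
Igfbp2: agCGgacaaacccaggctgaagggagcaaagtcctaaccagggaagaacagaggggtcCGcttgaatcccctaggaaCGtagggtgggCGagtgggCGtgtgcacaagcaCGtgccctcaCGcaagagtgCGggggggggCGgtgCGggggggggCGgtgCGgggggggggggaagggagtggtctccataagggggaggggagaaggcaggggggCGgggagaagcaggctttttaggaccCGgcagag
Igfbp3: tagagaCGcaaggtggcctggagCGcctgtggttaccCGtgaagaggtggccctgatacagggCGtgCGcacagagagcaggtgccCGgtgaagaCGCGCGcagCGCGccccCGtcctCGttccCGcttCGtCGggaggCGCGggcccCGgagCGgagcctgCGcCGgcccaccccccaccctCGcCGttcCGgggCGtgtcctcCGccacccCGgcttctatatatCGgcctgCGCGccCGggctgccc
Igfbp6: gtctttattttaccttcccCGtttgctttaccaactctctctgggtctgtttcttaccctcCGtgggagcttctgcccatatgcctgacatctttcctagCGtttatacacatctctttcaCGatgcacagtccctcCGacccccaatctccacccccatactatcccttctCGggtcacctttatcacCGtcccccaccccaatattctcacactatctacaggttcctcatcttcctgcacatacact

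The Igfbp3 window holds 32 CG dinucleotides, the Igfbp2 window 14 and the Igfbp6 window 7, against a median of 6 over 32807 promoter windows of this length. Igfbp5, which was at 0 in MEF like Igfbp2 and Igfbp3, has 10, and Igf1r, level in all libraries, has 42. Both strands were searched for 4 motifs. The GC box GGGCGG occurs 3 times before Igfbp2 and in no other of these 3 windows, and 32.7% of all windows hold it. The E-box CACGTG, the sequence that Myc and Max dimers bind, occurs once before Igfbp2, and 6.02% of all windows hold it. The TATA box TATAAA occurs once before Igfbp6, on the other strand, with 12.4% of all windows holding it, and the octamer ATGCAAAT, a POU factor sequence, occurs in none of the 3 windows (1.60% of all windows). These matches describe the windows and say nothing of binding.

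Summed over the family, the binding protein transcripts amounted to 455 FPKM in MEF and 1769.8 in cNSC. The sum was 1083 FPKM in pOKSM, 2674 in pBKSM, 849 and 812 in the mcBKSM clones and 1495 in DTA. As deposited, every neural library thus carried more binding protein transcript than MEF, and pBKSM carried the most. The MEF sum takes the listings of Igfbp2, Igfbp3 and Igfbp5 at 0 as no transcript, although they may be levels that were not estimated. The order at the top depended on scaling: after quantile normalization cNSC had the highest sum with 2807 FPKM, over 1.5 times its deposited value, followed by pBKSM with 2219 and DTA with 2180, and MEF was still lowest with 411.

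The composition changed as well as the sum. In MEF, with the listings at 0 taken as deposited, Igfbp6 made 56.5% of the sum, Igfbp4 40.1% and Igfbp7 3.37%. In cNSC, Igfbp2 and Igfbp3 made 49.8% and 46.4%, with a ratio of 1.07 between them. In the iNSC libraries Igfbp2 led with 54.9% (pOKSM), 62.9% (pBKSM), 56.9% and 57.8% (mcBKSM clones) and 75.6% (DTA). Igfbp3 made 11.9% to 18.3% there, and the ratio of Igfbp2 to Igfbp3 was 3.40 to 5.30. Igfbp4, the second gene of MEF, made 14.2% and 13.2% in the mcBKSM clones, 20.6% in pOKSM and 21.4% in pBKSM, while it made 2.19% in cNSC and 4.59% in DTA.

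**Figure D2:**
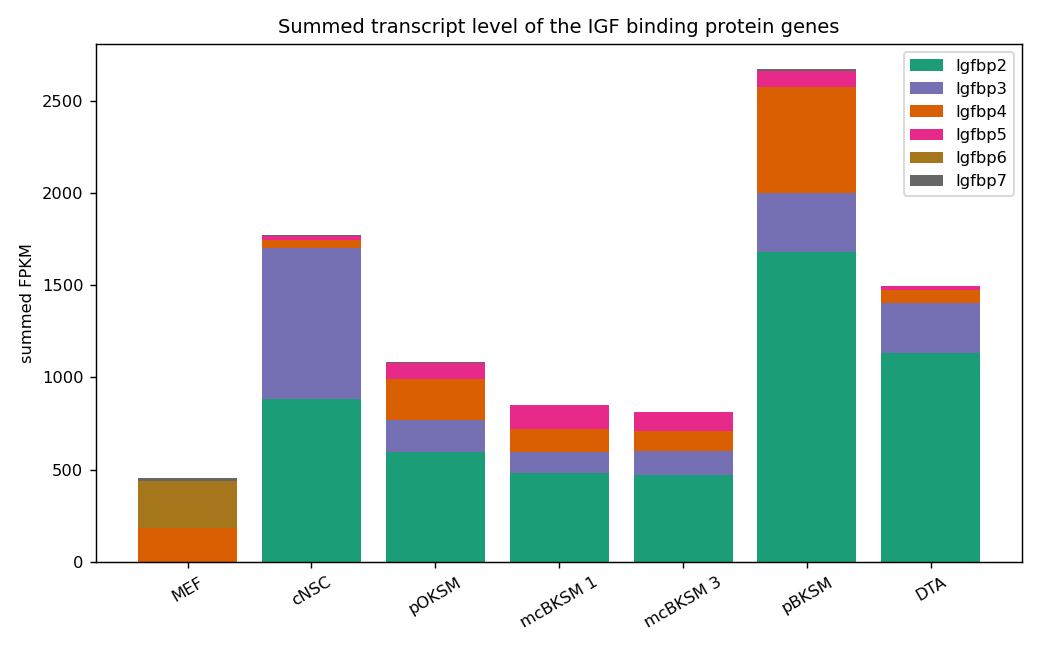
Summed FPKM of Igfbp2 to Igfbp7 in each library, stacked by gene. The MEF bar (455 FPKM) consists mainly of Igfbp6 and Igfbp4, the cNSC bar of nearly equal Igfbp2 and Igfbp3, and the iNSC bars mainly of Igfbp2.

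The ligand gene Igf1 was a fibroblast transcript in these libraries. It was 5.34 FPKM in MEF and 0.0631 in cNSC. Among the iNSC libraries DTA had 0.00854 FPKM, pOKSM 0.0233 and mcBKSM clone 1 0.0393, and pBKSM and mcBKSM clone 3 were listed at 0. Igf1 (chromosome 10, 87858265 to 87937042) fell in the iNSC libraries by 2.64 ± 0.11 on the log2(FPKM + 1) scale (SE, limma adjusted p = 9.2e-05). It reached the filter of 1 FPKM in MEF alone and so had to be lower elsewhere. The iNSC values lay near the detection floor and spanned 0.0556 on this scale, so the SE and p-value are a description. Igf1 and Igfbp6 fell beside the fibroblast marker sum given above. Whether loss of fibroblast cells accounts for it was not tested.

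The other ligand genes were listed at low values or at 0. Igf2, the fetal growth factor gene, was 0.122 FPKM in MEF, 0.359 in cNSC and 0.0419 to 0.440 in the iNSC libraries, and Ins1 and Ins2 were listed at 0 in all 7. The low Igf2 value in MEF stood beside 167 FPKM of H19, the imprinted non-coding RNA gene next to Igf2, in the same library. Igf2 overlaps the antisense gene Igf2os, so its value carries the same strand uncertainty as Igfbp7. The Igf2 values are taken as deposited, and the listings of Ins1 and Ins2 at 0 may be levels that were not estimated.

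The receptor gene Igf1r (chromosome 7, 67952827 to 68233668) was level. It was 13.6 FPKM in MEF, 13.5 in cNSC, 13.2 in pOKSM, 10.8 in pBKSM, 9.57 and 13.4 in the mcBKSM clones and 12.6 in DTA. The 2 clones, which carry the same label, differed as much as any 2 iNSC lines, by 0.45 on the log2(FPKM + 1) scale. Over the 7 libraries Igf1r spanned 0.47 on this scale, where genes reaching 5 FPKM had a median span of 1.17 and 5.27% of them spanned less. It did not pass against MEF (difference -0.19 ± 0.24, SE, adjusted p = 0.604) or against cNSC (-0.18 ± 0.24, adjusted p = 0.744). The insulin receptor gene Insr was 5.65 to 8.93 FPKM.

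Igf2r, encoding the receptor that takes up and degrades IGF-II and sorts lysosomal enzymes, fell. It was 114 FPKM in MEF, 12.96 in cNSC and 16.5 ± 2.72 (SD, n = 5) in the iNSC libraries, a log2(FPKM + 1) difference of -2.73 ± 0.23 (SE, adjusted p = 0.00128). Igf2r overlaps the antisense gene Airn, so its value carries the same strand uncertainty as Igfbp7. Of the 9 other ligand, receptor and carrier genes 3 could be tested, of which Igf2r alone was called, beside the 9.55% lower over all genes.

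Against the cNSC library, limma called none of the 10 genes, and 1.17% of all genes tested, 0.207% higher and 0.958% lower. At an unadjusted p under 0.05 there was 1 of the 10, beside 1779 of all 13042 genes tested. That 1 gene was Igfbp3, which was lower in the iNSC libraries by a log2(FPKM + 1) difference of -2.12 ± 0.60 (SE, adjusted p = 0.23), with 5 of 5 libraries below cNSC. Igfbp2 differed by -0.21 ± 0.77 (adjusted p = 0.914), Igfbp6 by 0.13 ± 0.28 (adjusted p = 0.837) and Igfbp5 by 1.54 ± 0.95 (adjusted p = 0.519). Without the DTA library Igfbp5 was called, with a difference of 1.98 ± 0.27 (adjusted p = 0.0345), the 1 member call gained under any setting of this comparison. Missing the threshold does not show equal levels, and the strain label of cNSC is not that of MEF.

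**Figure D3:**
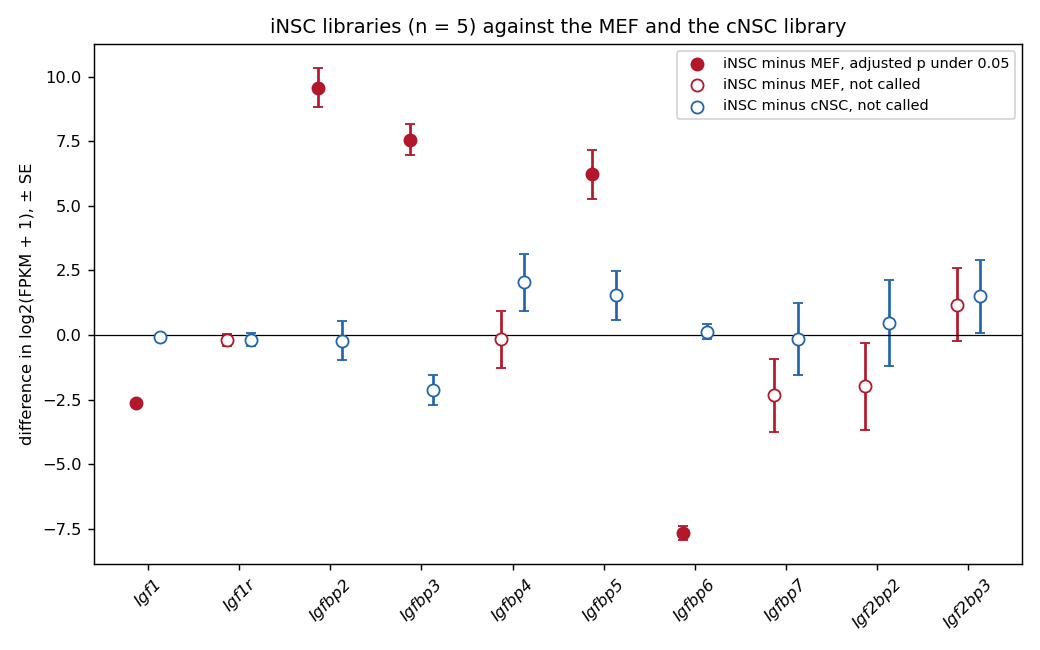
Difference of the 5 iNSC libraries from MEF (red) and from cNSC (blue) in log2(FPKM + 1), with SE, filled where the limma adjusted p is under 0.05. Igfbp2, Igfbp3 and Igfbp5 lie 6.21 to 9.57 above MEF, Igf1 and Igfbp6 lie below it, and no gene is called against cNSC.

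The cNSC and MEF libraries themselves, 1 against 1 and so without a test, differed 4-fold or more at 8 of the 10 genes, 3 higher and 5 lower in cNSC, where 14% of 9972 genes reaching 5 FPKM did so, 7.55% higher and 6.48% lower. The 8 genes allow each iNSC library to be placed on the way from MEF to cNSC on the log2(FPKM + 1) scale. For Igfbp6 the iNSC libraries had covered 92.6% to 100.3% of that way, for Igf1 101% to 103% and for Igfbp2 90.7% to 109.5%. For Igfbp3 the share was 70.8% to 85.9%, and for Igfbp5 94.98% to 150.4%. With MEF listed at 0 for Igfbp2, Igfbp3 and Igfbp5, their shares depend on the added 1. Igfbp3 was 115 to 317 FPKM in the iNSC libraries against 822 in cNSC. The remaining genes gave no common position: Igfbp4 ran from -74.6% in pBKSM to 63.2% in DTA, Igfbp7 from 15.9% in pBKSM to 179% in mcBKSM clone 3, and Igf2bp2 from 17.2% in mcBKSM clone 3 to 177% in DTA. A value below 0 lies beyond MEF, and one above 100 beyond cNSC.

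**Figure D4:**
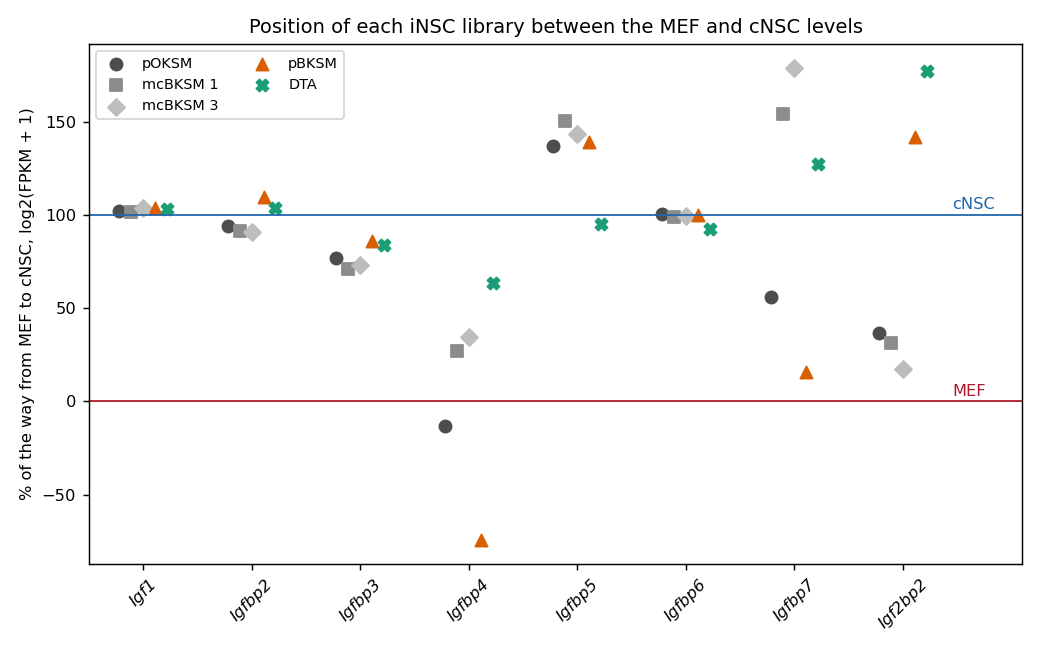
Position of each iNSC library between the MEF level (0%) and the cNSC level (100%) in log2(FPKM + 1), for the 8 genes at which MEF and cNSC differ. Points for Igf1, Igfbp2 and Igfbp6 gather near 100%, while those for Igfbp4, Igfbp7 and Igf2bp2 spread from near or beyond MEF to beyond or towards cNSC. Positions of Igfbp2, Igfbp3 and Igfbp5, listed at 0 in MEF, depend on the added 1.

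The Igf2bp genes divided the iNSC libraries among themselves. Igf2bp2 (chromosome 16, 22059009 to 22163299), whose product binds and stabilises messenger RNAs, was 50.2 FPKM in MEF and 8.31 in cNSC. It was 26.4 FPKM in pOKSM, 29.1 and 37.2 in the mcBKSM clones, but 3.55 in pBKSM and 1.502 in DTA. The first 3 libraries lay between the references, and pBKSM and DTA lay below both.

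Igf2bp3 (chromosome 6, 49085223 to 49214957), a fetal member of the family, was 9.63 FPKM in MEF and 7.50 in cNSC. It was 45.2 FPKM in pOKSM, 41.9 and 48.6 in the mcBKSM clones, 18.3 in pBKSM and 3.14 in DTA. In 4 iNSC libraries it was above both references, and in DTA below both. Malsu1 overlaps Igf2bp3 on the other strand. Neither gene passed against MEF (adjusted p = 0.455 for Igf2bp2 and 0.596 for Igf2bp3) or against cNSC (0.911 and 0.648). The SE of these differences was 1.41 to 1.68 on the log2(FPKM + 1) scale.

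The third paralog, Igf2bp1, was likewise lower in pBKSM and DTA than in pOKSM and both mcBKSM clones. It was 8.02 FPKM in MEF, 11.7 and 12.5 in the mcBKSM clones and 10.4 in pOKSM, while pBKSM had 0.147 and both cNSC and DTA were listed at 0. The FPKM of the 3 genes summed to 67.9 in MEF and 15.8 in cNSC, to 82.6 and 98.4 in the clones and 82.1 in pOKSM, and to 22.0 in pBKSM and 4.64 in DTA. Hmga1, encoding a chromatin protein of stem and tumour cells, reached 177 and 150.5 FPKM in the clones and 118 in pOKSM, but 19.5 in pBKSM and 12.9 in DTA. Its relative Hmga2, known as an activator of Igf2bp2, differed less between these libraries, at 15.7 FPKM in pOKSM, 11.2 and 16.2 in the clones, 7.97 in pBKSM and 9.45 in DTA, and it fell from 126 FPKM in MEF (log2(FPKM + 1) difference -3.33 ± 0.40, SE, adjusted p = 0.00475). Lin28b, which encodes an inhibitor of let-7 processing, had a highest value of 0.471 FPKM.

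**Figure D5:**
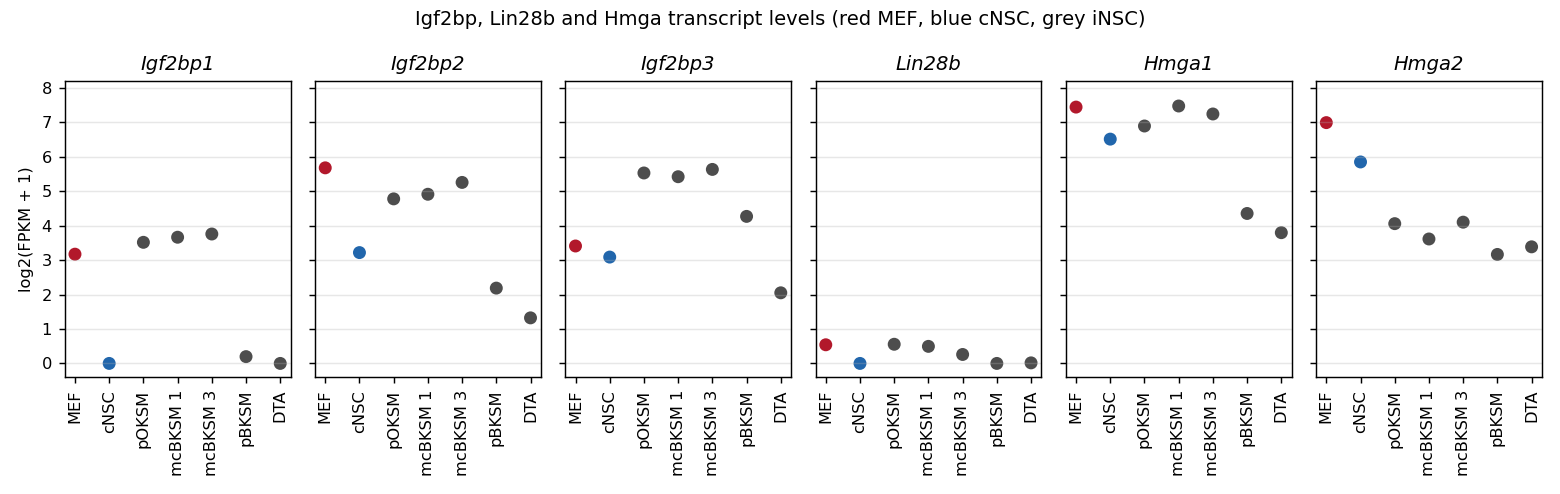
Levels of the 3 Igf2bp genes, Lin28b, Hmga1 and Hmga2 as log2(FPKM + 1) in the 7 libraries, 1 point per library (red MEF, blue cNSC, grey iNSC). The Igf2bp genes and Hmga1 are lower in pBKSM and DTA than in pOKSM and both mcBKSM clones.

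The spread of these genes among the iNSC libraries was wide. Over the 5 libraries the span on the log2(FPKM + 1) scale was 3.93 for Igf2bp2, 3.58 for Igf2bp3, 3.57 for Igfbp7, 3.04 for Igfbp4, 2.59 for Igfbp5, 1.84 for Igfbp2 and 1.46 for Igfbp3, against a median of 0.755 over 10009 genes reaching 5 FPKM in an iNSC library. Igfbp6 (0.600), Igf1r (0.448) and Igf1 (0.0556) spanned less than this median, with Igfbp6 and Igf1 under 1 FPKM in every iNSC library. Apart from Igfbp7, the 2 mcBKSM clones differed by at most 0.45 on this scale.

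The labels give pBKSM and the mcBKSM clones the same factors on different types of vector, although Pou3f4 (Brn4) was 19.99 FPKM in pBKSM and listed at 0 in both clones. Here limma called 2 of the 10 genes, both higher in pBKSM (5.82% of all genes tested, 3.74% higher and 2.08% lower). Igfbp2 was 1682 FPKM against 483 and 469, a log2(FPKM + 1) difference of 1.82 ± 0.09 (SE, adjusted p = 0.0411). Igfbp4 was 573 FPKM against 120 and 107, a difference of 2.33 ± 0.12 (adjusted p = 0.0423). Igfbp7 (3.303 ± 0.33, adjusted p = 0.0618), Igfbp3 (1.35 ± 0.14, adjusted p = 0.0635), Igf2bp2 (-2.90 ± 0.23, adjusted p = 0.0524) and Igf2bp3 (-1.26 ± 0.16, adjusted p = 0.0709) lay outside the range of the clones without passing. The test has 1 residual degree of freedom, and its calls depend on the setting. With a 5 FPKM filter these 4 genes were called too, making 6, beside 1454 of 10732 genes in all. The same 6 were called with the 3 BKSM libraries alone, beside 2536 of 12041 genes. With no filter no member was called, beside 781 of 17740 genes.

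Other genes of the pathway were called in this comparison and are named after their values were seen. Among them Igf2bp1 (-3.51 ± 0.12, SE, adjusted p = 0.0367) and Hmga1 (-3.005 ± 0.15, adjusted p = 0.0417) were lower in pBKSM, as was the binding-protein-like gene Igfbpl1 (0.336 FPKM against 2.28 and 2.31). The secreted protease gene Htra1, whose product cleaves IGF binding proteins, was higher in pBKSM with 24.8 FPKM against 2.48 and 2.13 (difference 2.97 ± 0.16, adjusted p = 0.0426). Plat, encoding tissue plasminogen activator, was also higher, with 141 FPKM against 44.2 and 46.9. None of 27 adaptor and PI3 kinase genes was called by limma. At an unadjusted p under 0.05 there were 8 of the 27, beside 4880 of all 13042 genes tested.

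The polycistronic lines pBKSM and pOKSM, 1 library each and so without a test, differed 2-fold or more on the log2(FPKM + 1) scale at 4 of the 10 genes, against 11.6% of 9282 genes reaching 5 FPKM (6.47% higher and 5.1% lower). Igfbp2 (1.499) and Igfbp4 (1.36) were higher in pBKSM, and Igf2bp2 (-2.59) and Igf2bp3 (-1.26) were lower.

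The DTA line, whose genotype is built so that toxin kills cells with active Oct4-CreER, was set against the other 4 iNSC libraries. Limma called none of the 8 members tested and 0.355% of all genes tested, 0.202% higher and 0.153% lower. At an unadjusted p under 0.05 there were 2 of the 8, beside 2533 of all 12378 genes tested. Those 2 were Igfbp5 (log2(FPKM + 1) difference -2.22 ± 0.27, SE, adjusted p = 0.0627) and Igf2bp3 (-3.16 ± 0.57, adjusted p = 0.0889). For both genes DTA was below all 4 other libraries. The count of called genes rests on pBKSM. Without it 3951 of 12239 genes were called, among them Igfbp2 (1.14 ± 0.18, adjusted p = 0.0198), Igfbp5, Igf2bp2 and Igf2bp3. These member calls thus came with a rise in calls over all genes. Igf1 and Igfbp6 did not reach 1 FPKM in any iNSC library and were not tested here. Of the protease list only the gelatinase gene Mmp2, named after its value was seen, was called, with 0.732 FPKM in DTA against 29.0 to 45.2 in the other lines (difference -4.31 ± 0.30, adjusted p = 0.0175).

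Downstream of the receptor, 7 of 27 tested adaptor and PI3 kinase pathway genes fell in the iNSC libraries against MEF and none rose (9.55% lower and 6.77% higher over all genes), with a list median of -0.35 on the log2(FPKM + 1) scale against 0.03 for all genes. The PI3 kinase catalytic gene Pik3cb was 24.5 FPKM in MEF and 3.15 ± 0.414 (SD, n = 5) in the iNSC libraries. The adaptor gene Shc1 was 53.3 and 16.3 ± 3.41 FPKM, the translation inhibitor gene Eif4ebp1 267 and 91.5 ± 22.9, and Rictor, of mTOR complex 2, 12.6 and 4.03 ± 0.677. Their log2(FPKM + 1) differences were -2.63 ± 0.24, -1.67 ± 0.29, -1.57 ± 0.33 and -1.44 ± 0.26 (SE), with limma adjusted p = 0.00155, 0.0164, 0.0291 and 0.0182. The calls of Shc1, Eif4ebp1 and Rictor ended without pOKSM (adjusted p = 0.0543, 0.0677 and 0.0631). Those of Eif4ebp1 and Rictor ended without mcBKSM clone 3 (0.0655 and 0.0519), and that of Eif4ebp1 without pBKSM (0.0533). Against cNSC limma called none of these 27 genes. At an unadjusted p under 0.05 there were 4 of the 27, beside 1779 of all 13042 genes tested.

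Of 10 tested protease and inhibitor genes, which set how long binding proteins persist, 1 fell against MEF and none rose, a share near the 9.55% of all genes that were lower. It was Plau, encoding urokinase, with 43.5 FPKM in MEF, 0.140 in cNSC and 0.943 ± 0.650 in the iNSC libraries (log2(FPKM + 1) difference -4.59 ± 0.52, SE, adjusted p = 0.00383). Pappa, the gene of the protease that cleaves Igfbp4 protein, had a highest value of 0.129 FPKM over the 7 libraries. In the list of Igf2bp, Lin28 and Hmga genes, H19 and Hmga2 fell and Dis3l2, encoding an RNA exonuclease, rose, of 5 tested (9.55% lower and 6.77% higher over all genes). H19 was 167 FPKM in MEF, 9.19 in cNSC and 0.187 ± 0.120 in the iNSC libraries, and was also lower than in cNSC (difference -3.11 ± 0.22, adjusted p = 0.00417). Dis3l2 was 4.05 FPKM in MEF and 11.55 ± 2.41 in the iNSC libraries (adjusted p = 0.0491), a call that ended with no filter (0.0514), with quantile normalization (0.0713) and without any 1 of the iNSC libraries pOKSM, pBKSM, mcBKSM clone 1 and mcBKSM clone 3 (0.0739 to 0.122).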

How the data were processed

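RNA of 2 to 3 biological replicates was pooled for each of 7 libraries, per the labels' protocols. The authors deposited FPKM values, 1 per gene symbol and library. The submitters' processing notes name build mm10 and the tools Cuffnorm, Cufflinks 2.2.1, STAR 2.5.2b and R 3.3.2, without role or setting. Columns were matched to samples by title.

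From these values log2(FPKM + 1) was computed. A gene entered a fit if any library of that fit reached 1 FPKM. The test was limma-trend (R 4.3.3 with limma 3.58.1), p-values were adjusted by Benjamini-Hochberg over all tested genes, and calls were made at an adjusted p under 0.05. The iNSC comparisons used 3 classes in 1 fit (4 residual degrees of freedom), pBKSM against mcBKSM the 6 label groups (1), and DTA the 5 iNSC libraries (3). Where a side has 1 library, it is assumed to vary like the replicated side. Comparisons of 1 library with 1 use a 4-fold (cNSC and MEF) or 2-fold (pBKSM and pOKSM) difference where the higher value is 5 FPKM or more. The fits were tested on simulated data in which every library, the lone one included, had the same spread for a gene. Whether a lone library varies like the replicated side was therefore not tested.

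Depth was estimated from genes with 1 GENCODE M21 transcript, whose low values move in steps of 1 fragment; the share of low values at most 0.1 from a whole number of fragments was 69.5% to 78.0%, so the estimate is approximate. Promoter windows and motifs come from RefSeq (GRCm38.p6), where all 10 genes matched.

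The members and lists were chosen with earlier results of these data known. Named genes are the 10 members, and of each of 5 further lists up to 4 genes called against MEF, or up to 2 of the highest FPKM where none was called. For members with at least 5 FPKM and a span of 2 on the log2(FPKM + 1) scale, the 2 genes of most similar centred profile (smallest root mean square difference over 7 libraries) are also named. Alternatives were a pseudocount of 0.1, no filter, a 5 FPKM filter, quantile normalization, other sample sets and leaving out libraries.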

Additional observations from a re-analysis of the deposited data

Results flagged for a closer look

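Among the 5 iNSC libraries, 24 quantities (the genes named by rule and the Igfbp sum) were searched for a library far from the others, and 2 were found where chance flags about 1 in 20. Igfbp6 was 0.732 FPKM in DTA, while the next library was at 0.240 and the lowest at 0.142, so that the gap took up 0.834 of the whole range. Nov, a CCN family gene, was 0.367 FPKM in mcBKSM clone 1, with the next library at 0.0392 and the lowest listed at 0, a gap of 0.893 of the range. Both values are far below those in MEF (257 and 6.52 FPKM) and under 1 FPKM; the floor of 3 fragments (2 kb transcript) is about 0.0949 FPKM in DTA and 0.108 in mcBKSM clone 1.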

How the results depend on the processing

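Against MEF, the 5 members called (Igf1, Igfbp2, Igfbp3, Igfbp5 and Igfbp6) were called under each of the 10 alternatives, while the count over all genes ran from 1147 (without pOKSM) to 3193 (without DTA) when 1 iNSC library was left out, and was 1417 without mcBKSM clone 3. Against cNSC the count over all genes was 74 with a pseudocount of 0.1, 618 with no filter, 74 with a 5 FPKM filter, 83 from the iNSC and cNSC libraries alone, and from 50 (without pOKSM) to 883 (without DTA) with 1 library left out (59 and 70 without mcBKSM clone 3 or 1), where 0 to 1 members were called. For pBKSM against the mcBKSM clones, 1454 genes were called with a 5 FPKM filter and 2536 from the 3 BKSM libraries alone, with 6 members each, and 0 members were called with no filter (adjusted p = 0.0515 for Igfbp2 and 0.0654 for Igfbp4). Leaving out a clone there left no residual degrees of freedom and gave values without a test. For DTA against the other lines, the count was 17 with a pseudocount of 0.1, 583 with no filter (2 members, Igfbp5 and Igfbp6), 16 with a 5 FPKM filter, and from 0 (without mcBKSM clone 1) to 3951 (without pBKSM) with 1 library left out (0 to 4 members; 2 and 3 genes without mcBKSM clone 3 or pOKSM). The cNSC and MEF libraries differed 2-fold or more at 2923 genes, and the cNSC Igfbp sum was 2807 FPKM after quantile normalization, above pBKSM (2219). Directions of members changed for 4 differences that had not passed: Igfbp4 against MEF (-0.62 to 0.14 with 1 library left out), Igfbp7 against cNSC (-0.64 to 0.25), Igf1r in pBKSM against the mcBKSM clones (-0.29 to 0.15, without a test) and Igfbp7 in DTA against the others (-1.14 to 0.0512). The cause of these changes was not tested beyond the fewer or more genes and libraries each fit holds. Depth limits Igf1 in the neural libraries and Igfbp6 in those other than DTA, where they lie near the floor. No paired analysis was possible because each comparison has a side with only 1 library.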

Other observations

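Genes outside the IGF system with the most similar profiles over the 7 libraries were found among 10337 others, as a description. For Igfbp2 they were Fabp7, a radial glia lipid carrier gene (root mean square difference 0.60 on the log2(FPKM + 1) scale), and Ckb, brain creatine kinase (0.73), against a root mean square of 3.42 for the profile of Igfbp2 itself. For Igfbp3 they were Ptprz1, a receptor phosphatase gene of radial glia (0.56), and Olig2, a progenitor transcription factor gene (0.67). Igfbp5 ran closest to Itm2a (0.20), which was 91.5 FPKM in pOKSM, 96.9 in pBKSM, 92.8 and 89.7 in the mcBKSM clones, 19.9 in DTA and 22.4 in cNSC, and to Pipox (0.32). Igfbp6 ran closest to Arhgdib (0.14) and the annexin gene Anxa3 (0.24), and Igf1 to Klra23 (0.03) and Krt80 (0.04), each under 1 FPKM outside MEF.

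The members that varied between lines had other partners. Igf2bp2 ran closest to the MHC class I gene H2-K1 (0.27), which was 106 FPKM in MEF, 25.5 in cNSC, 61.0 in pOKSM, 45.2 and 88.6 in the mcBKSM clones, 7.30 in pBKSM and 5.03 in DTA, and to Mfsd10 (0.43). Igf2bp3 ran closest to Adam19 (0.35) and Ccbe1 (0.35), Igfbp4 to the transcription factor gene Ebf1 (0.44) and Pqlc1 (0.62), and Igfbp7 to the adaptor gene Shc2 (0.55) and Lhfp (0.68).

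The CCN genes, whose secreted products carry an amino-terminal domain related to that of the IGF binding proteins, and other genes with such a domain gave 4 of 9 tested genes lower in the iNSC libraries than in MEF by limma, and none higher (9.55% lower and 6.77% higher over all genes). Of the 4, Wisp1 and Wisp2 reached the filter of 1 FPKM in MEF alone and so had to be lower elsewhere, and the count is a description. Wisp1 was 21.3 FPKM in MEF, 0.490 in cNSC and 0.186 ± 0.158 (SD, n = 5) in the iNSC libraries (adjusted p = 0.000197). Ctgf, a matrix-inducing factor gene, was 33.1, 1.09 and 2.38 ± 1.79 FPKM in the same order (adjusted p = 0.0398), and its call ended with a pseudocount of 0.1 (0.0828), with no filter (0.053) and without any 1 of the 4 lines other than DTA (0.0533 to 0.0922). Nov was 6.52 FPKM in MEF, 1.20 in cNSC and at most 0.367 in the iNSC libraries, and also fell, as did Wisp2 (3.85 FPKM in MEF). Cyr61, named after its values were seen, was 132 FPKM in MEF and 7.46 in cNSC, 37.6 in pBKSM, 12.7 and 13.6 in the mcBKSM clones, 75.5 in DTA and 18.6 in pOKSM, and was higher in pBKSM than in the clones (adjusted p = 0.0492).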
